A study of Mus musculus with 8 samples.

Results

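The genes described here encode 10 receptors through which hormones, minerals and vitamins act on bone. They were looked up by symbol, and all 10 were found among the 15880 genes of the table, each under 1 identifier. RNA-seq had been performed on stromal cells of newborn *Nes-Gfp* mice at postnatal day 1, on a C57BL/6 background. The pups were heterozygous for a transgene that places GFP under nestin regulatory elements, so that GFP marks activity of the transgene and all 4 populations come from carriers of it. Cells of crushed, collagenase-treated bones that lacked CD45 (blood cells), CD31 (endothelium) and Ter119 (erythroid cells) were sorted by GFP and surface Pdgfrα into GFP+ Pdgfrα+ (double positive), GFP- Pdgfrα+, GFP+ Pdgfrα- and GFP- Pdgfrα- (double negative) populations. Each population had 2 libraries, each from a pool of 3 pups and from 15000 to 80000 sorted cells. Libraries with the same replicate number were taken to share a pool, which the labels do not state, so the populations may not come from separate pups.

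Receptors of 2 kinds are covered. The surface receptors *Pth1r*, *Casr*, *Ghr* and *Insr* bind parathyroid hormone and its related peptide, calcium ions, growth hormone and insulin outside the cell, and signal through G proteins or kinases. The nuclear receptors *Vdr*, *Nr3c1*, *Esr1*, *Thra*, *Rara* and *Rarg* are transcription factors that bind vitamin D, glucocorticoids, estrogens, thyroid hormone and, for the last pair, retinoic acid, many of them as partners of retinoid X receptors. In the skeleton, parathyroid hormone and vitamin D regulate calcium and phosphate, growth hormone and insulin-like growth factors drive growth, and retinoic acid and thyroid hormone regulate cartilage growth.

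Values are normalized reads per 1000000, computed by the authors as the reads of a gene plus 0.5, divided by an effective library size. The reads on genes, recovered from these values, numbered 3221217 to 5302762 per library. A gene with 3 reads had a value of 0.825 to 1.04, according to the library, and this was taken as the floor of detection. Differences between populations are log2 fold changes of (value + 1), which understate the change of genes with low values, and were tested with limma across all genes. A gene was called where the Benjamini–Hochberg adjusted p over all genes was at most 0.05. An exact permutation test of 2 against 2 libraries cannot give a p below 0.333, so the calls rest on the spread that the model shares among genes.

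The genes used for sorting followed the labels. *Pdgfra* lay between 733 and 839 in the 4 libraries of Pdgfrα+ cells and between 3.30 and 18.1 in the Pdgfrα- libraries. *Nes* had values of 57.6 and 72.0 in double positive cells against 27.4 and 47.1 in GFP- Pdgfrα+ cells. Among Pdgfrα- cells, it had values of 149 and 176 with GFP and 3.59 and 9.08 without it. The populations therefore differed in *Nes* in the direction of the sort, but GFP- Pdgfrα+ cells were not free of it.

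Marker genes of other cell types were measured in the same libraries, since fewer cells of a type and less RNA per cell cannot be told apart in sorted bulk populations. The 8 osteoblast markers, led by *Col1a1*, summed to 60625 and 44667 in double positive cells. The GFP- Pdgfrα+ libraries had sums of 17263 and 15625, and the GFP+ Pdgfrα- libraries of 3885 and 3212. The sum was 548 and 670 in double negative cells, where *Bglap*, which encodes osteocalcin, had 0 reads in both libraries. *Col1a1* alone set the order of the middle populations, since it was called lower in GFP+ Pdgfrα- cells than in GFP- Pdgfrα+ cells whereas 5 of the 8 markers were called higher there (median 1.04). In that comparison 27.9% of all genes were called. Osteoblast genes were highest in the double positive cells, and all 8 were called higher there than in each of the other populations. Of all genes, 3.22% were called higher there than in GFP- Pdgfrα+, 13.1% than in GFP+ Pdgfrα- and 32.9% than in double negative cells. The 6 tendon markers, led by *Thbs4*, summed to 3854 and 3906 in GFP- Pdgfrα+ cells, to 655 and 665 in double positive cells, to 26.0 and 26.2 in GFP+ Pdgfrα- cells (with *Kera* at 0 reads in replicate 2) and to 103 and 142 in double negative cells. The 7 chondrocyte markers, led by *Col2a1*, summed to 616 and 2052 in GFP- Pdgfrα+ cells, 308 and 405 in double positive cells, 71.7 and 100.5 in GFP+ Pdgfrα- cells and 546 and 967 in double negative cells. Of these, *Matn1* had 0 reads in 5 libraries, and *Col9a1* had 0 in GFP+ Pdgfrα- replicate 1.

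The GFP+ Pdgfrα- libraries carried the highest sums of mural, glial and muscle markers. The 8 pericyte and smooth muscle markers, led by *Rgs5*, summed to 1838 and 2386 there and to at most 417 in the other populations. The 7 markers of Schwann cell precursors, led by *Erbb3*, summed to 444 and 410.2 there, to 102 and 62.0 in double positive cells and to at most 39.5 elsewhere, where *Sox10*, *Fabp7*, *Cdh19* or *Foxd3* had 0 reads in some libraries. The 8 skeletal muscle markers, led by *Pax7*, summed to 699 and 717 there and to at most 60.7 elsewhere. double negative cells stood apart by blood genes. Their 6 erythroid markers, led by *Hbb-b1*, summed to 10613 and 16518, against at most 131 in the other libraries, although Ter119+ cells had been gated out. The 6 myeloid markers in the table, led by *Lyz2*, summed to 57.2 and 51.2 there and to 3.87 to 22.1 elsewhere (*Ptprc*, which encodes CD45, had 0 reads in both GFP- Pdgfrα+ libraries). The 6 endothelial markers summed to 31.6 to 121 over the 8 libraries. *Tek* was lowest in double negative cells (0.718 and 6.25), and the other 5 had their highest means there. Those 5 were higher in replicate 2 than in replicate 1 of these cells. For *Kdr* (3.02 and 22.0) and *Cdh5* (11.6 and 48.0), replicate 1 lay below libraries of other populations. The 3 osteoclast markers in the table did not run together. *Acp5* had 97.2 and 108 in double negative cells and at most 4.01 elsewhere, *Ctsk* had 0.431 and 1.77 there and 39.9 to 51.8 in Pdgfrα+ libraries, and *Mmp9* was highest in double positive cells (16.4 and 26.6), so that their sums, 104 and 113 in double negative cells and 7.89 to 79.5 elsewhere, mark no single population. The 5 adipocyte markers summed to 471 and 516 in double positive cells, of which *Lpl* made up 453 and 499, and to 62.6 to 426 in the others, while *Fabp4* (−1.85, adjusted p = 0.00543) and *Plin1* (−1.27, adjusted p = 0.0435) were called lower in double positive than in GFP+ Pdgfrα- cells. The part of these other cells in the receptor values below was not tested.

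The receptors were mostly lowest in double negative cells, and *Vdr* and *Pth1r* were the members that were higher with GFP among Pdgfrα+ cells. Between double positive and GFP- Pdgfrα+ cells, 3 of 10 members were called, where 5.35% of all genes were. *Vdr* and *Pth1r* were higher in the GFP+ cells (3.22% of all genes) and *Casr* was lower (2.13%). Leaving out 1 library of these populations took the 849 called genes to 246 to 517 and the called members to 1 to 3. Within GFP+ cells, 5 of 10 were called, each higher in the Pdgfrα+ cells, against 24.2% of all genes called and 13.1% called higher. The 3848 genes behind that share became 2158 to 3047 when 1 library of these populations was left out, and the called members 4. The 5 members called with all libraries were *Pth1r*, *Vdr*, *Ghr*, *Rarg* and *Esr1*. Between GFP+ Pdgfrα- and GFP- Pdgfrα+ cells, 6 members were called, each lower in the GFP+ Pdgfrα- cells (27.9% of all genes called, 14.3% lower), and leaving out 1 library of these populations took the 4427 called genes to 2757 to 3077 and the members called lower to 4 or 5.

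Against double negative cells, most genes of the table changed and the count of members has to be read beside that. There, 9 of 10 members were higher in GFP- Pdgfrα+ cells (59.7% of all genes called, 32.9% higher). In double positive cells 8 were higher (59.3% called, 32.9% higher), and in GFP+ Pdgfrα- cells 7 were (53.7% called, 30.1% higher). No member was called lower in these comparisons. The direction of all genes here depended on the scale. When each library was centred on its median, the median log2 fold change of all genes moved by −0.45 to −0.48 in the comparisons with double negative cells. The split of calls for GFP+ Pdgfrα- cells then turned from 4787 higher and 3740 lower to 3550 and 5569, that for GFP- Pdgfrα+ cells from 5226 and 4250 to 3913 and 5720, and that for double positive cells from 5221 and 4189 to 3834 and 5846. The same 8, 9 and 7 counts of members were called higher on the centred scale, each shift being smaller than the members' median log2 fold changes of 1.94 to 3.43.

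**Figure D1:**
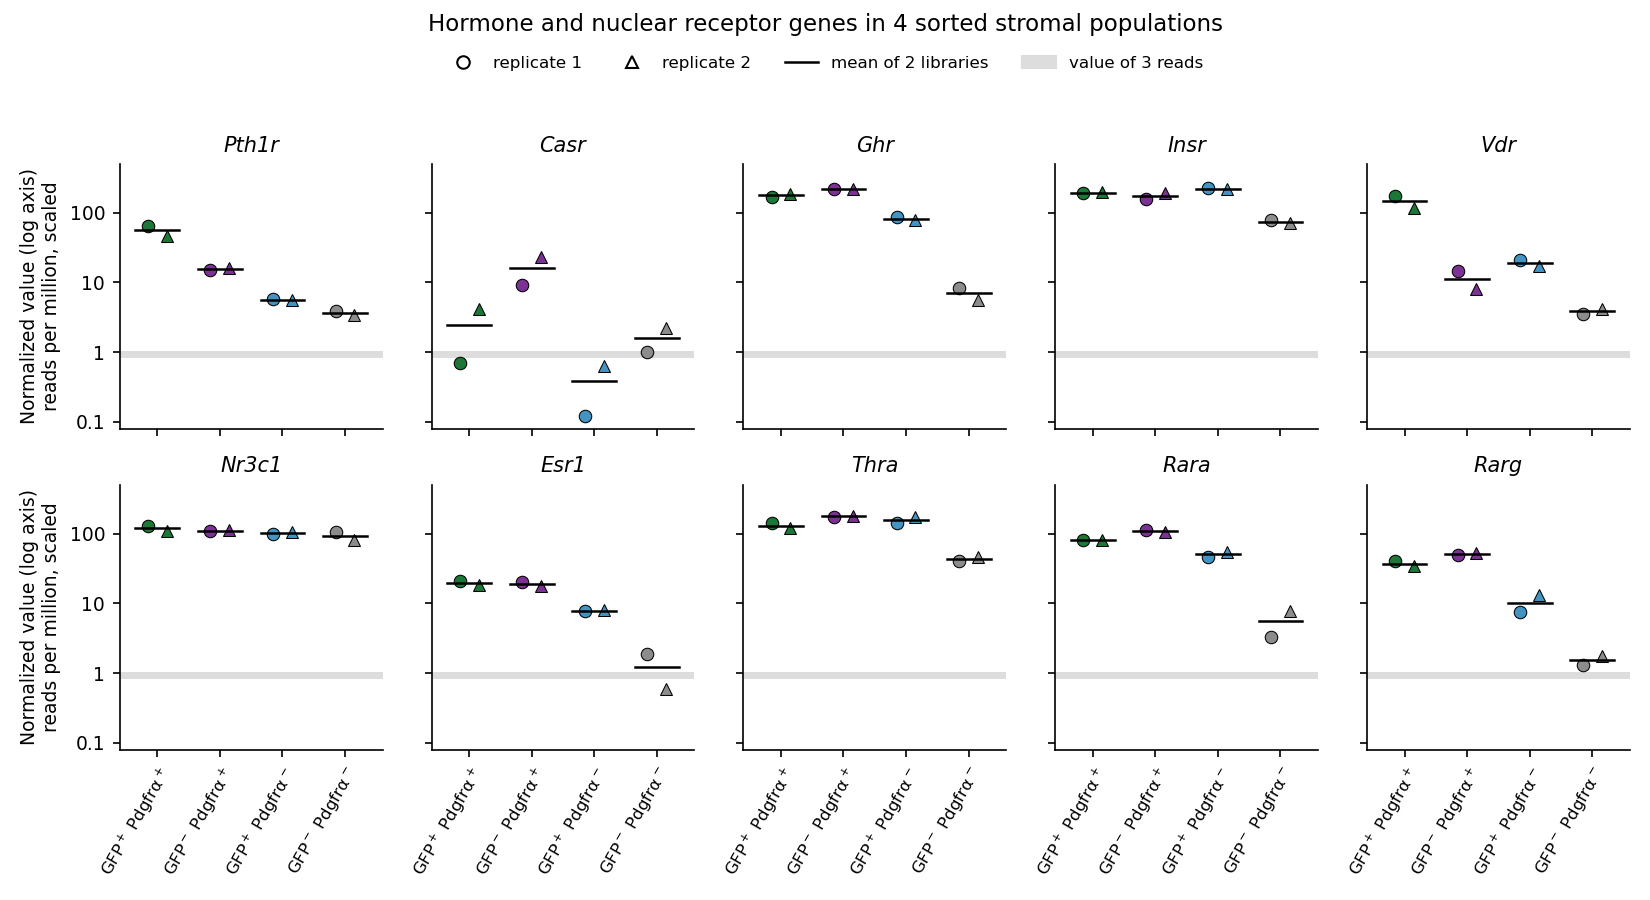
Normalized values of the 10 receptor genes on a log axis in each of the 8 libraries, with circles for replicate 1, triangles for replicate 2 and a black line at the mean of each population. The grey band marks the value of 3 reads (0.825 to 1.04), and *Vdr* in double positive cells (174 and 118) lies above the 6 other libraries, which are between 3.59 and 21.0, while *Nr3c1* stays between 81.0 and 127 in every library.

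Among the surface receptors, *Pth1r* (ENSMUSG00000032492, chr9:110624592-110649649, minus strand of NCBIM37, 16 merged exons) encodes the G protein-coupled receptor shared by parathyroid hormone and its related peptide. Its values were 64.8 and 46.7 in double positive cells, 15.0 and 16.2 in GFP- Pdgfrα+, 5.71 and 5.53 in GFP+ Pdgfrα- cells and 3.88 and 3.42 in double negative cells. No populations overlapped, and both double positive libraries were above all others. The step from double positive to GFP- Pdgfrα+ cells was called (log2 fold change 1.76, SE 0.29, adjusted p = 0.00433), as was that from GFP- Pdgfrα+ to GFP+ Pdgfrα- cells (1.33, SE 0.29, adjusted p = 0.00454). The last step, between the Pdgfrα- populations, was not (0.51, SE 0.29, adjusted p = 0.158). The mean in double positive cells was 15.3 times that in double negative cells. Without double positive replicate 1 the first step missed the threshold (1.53, adjusted p = 0.0623), as it did without GFP- Pdgfrα+ replicate 1 (1.71, adjusted p = 0.0534), with a range of 0.000505 to 0.0623 over all alternatives.

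*Casr* (ENSMUSG00000051980, chr16:36493782-36562227, minus strand) encodes the calcium-sensing receptor, which in bone is known from chondrocytes and osteoblasts. It was read rarely, with 36 and 77 reads in GFP- Pdgfrα+ cells, 2 and 14 in double positive cells, 3 and 9 in double negative cells and 0 and 2 in GFP+ Pdgfrα- cells. The corresponding normalized values were 9.20 and 23.0, 0.691 and 4.17, 1.01 and 2.24, and 0.121 and 0.643. Only GFP- Pdgfrα+ cells had both libraries above the floor by a wide margin. In that population *Casr* was higher than in double positive cells (log2 fold change of GFP+ over GFP- −2.40, SE 0.58, adjusted p = 0.0340) and than in double negative cells (2.62, SE 0.58, adjusted p = 0.00201). Over the pooled reads, 113 against 2, its level in GFP- Pdgfrα+ cells was 61.7 times that in GFP+ Pdgfrα- cells (exact 95% interval 16.7 to 516, counting error only). The ratio of the means of the normalized values was 42.1. Since GFP+ Pdgfrα- cells lay below the floor, neither ratio fixes the size of this difference. For double positive against GFP+ Pdgfrα- cells, 16 reads against 2 gave a ratio of 9.02 (2.12 to 80.9), and the model did not call that pair (adjusted p = 0.195).

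The *Casr* libraries of one population differed by 2.23 to 6.04 times, the latter being the widest such ratio among the members, and replicate 2 was the higher in each population. The sum of chondrocyte markers was also higher in replicate 2 of each population, with 616 and 2052 in GFP- Pdgfrα+ cells, and its part in the *Casr* values was not tested. The call between the Pdgfrα+ populations did not hold when the pseudocount was 0.1 (−2.997, adjusted p = 0.126), without the mean-variance trend (adjusted p = 0.0933), in a fit of only these populations (adjusted p = 0.0905) and with edgeR on the recovered reads (adjusted p = 0.0557). It was also lost without double positive replicate 1 (−1.60), either GFP- Pdgfrα+ library (−3.02 and −1.79) or either GFP+ Pdgfrα- library, and over all alternatives the adjusted p ranged from 0.00585 to 0.275.

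*Ghr* (ENSMUSG00000055737, chr15:3267760-3533492, minus strand) encodes the growth hormone receptor, which signals through Jak2 and Stat5 to induce *Igf1*. Its values were 219 and 218 in GFP- Pdgfrα+ cells, 169 and 188 in double positive cells, 85.6 and 79.6 in GFP+ Pdgfrα- cells and 8.47 and 5.54 in double negative cells. The Pdgfrα+ populations did not overlap, yet their difference was not called (−0.29, SE 0.18, adjusted p = 0.451). Both lower steps were called, from double positive to GFP+ Pdgfrα- cells (1.105, SE 0.18, adjusted p = 0.00102) and from these to double negative cells (3.41, SE 0.18, adjusted p = 2.38e-08). The highest population mean was 31.2 times the lowest.

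*Insr* (ENSMUSG00000005534, chr8:3150922-3279617, minus strand) encodes the insulin receptor, a tyrosine kinase. It reached 227 and 219 in GFP+ Pdgfrα- cells, 192 and 196 in double positive cells, 157 and 189.6 in GFP- Pdgfrα+ cells and 78.8 and 70.9 in double negative cells. The 3 upper populations followed each other closely, and neither neighbouring step among them was called (0.20, SE 0.14, adjusted p = 0.341, and 0.17, SE 0.14, adjusted p = 0.578). The step from GFP- Pdgfrα+ to double negative cells was (1.197, SE 0.14, adjusted p = 9.96e-06). The difference between GFP+ Pdgfrα- and GFP- Pdgfrα+ cells lay at the threshold, with a log2 fold change of 0.36 and an adjusted p of 0.0685. It passed without either double negative library (adjusted p = 0.0483 and 0.0477), in a fit of only these populations (adjusted p = 0.0499) and with voom on the recovered reads (adjusted p = 0.0465), and its range over all alternatives was 0.0465 to 0.380.

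Among the nuclear receptors, *Vdr* (ENSMUSG00000022479, chr15:97684856-97741061, minus strand, 14 merged exons) showed the largest difference by GFP among Pdgfrα+ cells of the 10 members. It encodes the vitamin D receptor, which regulates osteoblast genes such as those of osteocalcin and osteopontin. Values were 174 and 118 in double positive cells, 21.0 and 17.4 in GFP+ Pdgfrα-, 14.5 and 8.17 in GFP- Pdgfrα+ cells and 3.59 and 4.13 in double negative cells. No populations overlapped, and both double positive libraries were far above all others. *Vdr* was 12.9 times higher in double positive than in GFP- Pdgfrα+ cells (log2 fold change 3.59, SE 0.30, adjusted p = 4.99e-05). The steps from double positive to GFP+ Pdgfrα- cells (2.84, SE 0.30, adjusted p = 3.58e-05) and from GFP- Pdgfrα+ to double negative cells (1.30, SE 0.30, adjusted p = 0.00268) were called. The middle step, between GFP+ Pdgfrα- and GFP- Pdgfrα+ cells, was not (0.75, SE 0.30, adjusted p = 0.0861), but was without GFP- Pdgfrα+ replicate 1 (1.13, adjusted p = 0.0400, range over all alternatives 0.0400 to 0.482).

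*Nr3c1* (ENSMUSG00000024431, chr18:39570199-39650955, minus strand) encodes the glucocorticoid receptor. It differed least among the members, with 127 and 111 in double positive cells, 109.5 and 111 in GFP- Pdgfrα+, 98.2 and 105 in GFP+ Pdgfrα- cells and 105 and 81.0 in double negative cells. The highest population mean was 1.28 times the lowest, and *Nr3c1* was called in none of the 6 pairwise comparisons. The widest of these, double positive over double negative cells, had a log2 fold change of 0.36 with a 95% interval of 0.02 to 0.70 and an adjusted p of 0.0668. This and the comparison of GFP- Pdgfrα+ with double negative cells were called without double negative replicate 1 (0.55, adjusted p = 0.0144, and 0.44, adjusted p = 0.0388), while both turned negative when libraries were centred on their medians (−0.12 and −0.20). Over all alternatives the adjusted p ranged from 0.0144 to 0.550 for the first and from 0.0388 to 0.743 for the second.

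*Esr1* (ENSMUSG00000019768, chr10:5340927-5734948, minus strand in this build) encodes estrogen receptor alpha. Its values were 20.9 and 18.3 in double positive cells, 20.04 and 17.97 in GFP- Pdgfrα+, 7.65 and 8.10 in GFP+ Pdgfrα- cells and 1.87 and 0.590 in double negative cells. The Pdgfrα+ populations overlapped and differed by 0.04 (SE 0.36, adjusted p = 0.976). The step from them to GFP+ Pdgfrα- cells was called (1.171 from GFP- Pdgfrα+ cells, SE 0.36, adjusted p = 0.0284), as was the last step to double negative cells (2.06, SE 0.36, adjusted p = 0.000384), which had 6 and 2 reads. The calls of GFP+ Pdgfrα- against either Pdgfrα+ population did not hold when the pseudocount was 0.1 (adjusted p = 0.0898 and 0.0894) and without any 1 library of the populations compared (log2 fold changes of 1.12 to 1.30 against double positive and −1.096 to −1.246 against GFP- Pdgfrα+ cells). Over all alternatives the adjusted p ranged from 0.00942 to 0.134 and from 0.00955 to 0.143.

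*Thra* (ENSMUSG00000058756, chr11:98601952-98630320, plus strand) encodes thyroid hormone receptor alpha. It had values of 171 and 181 in GFP- Pdgfrα+, 141 and 172 in GFP+ Pdgfrα- cells, 139.6 and 119.7 in double positive cells and 40.6 and 45.4 in double negative cells. Among the 3 upper populations neither neighbouring step was called (0.17, SE 0.15, adjusted p = 0.458, with overlap, and 0.27, SE 0.15, adjusted p = 0.235, without). The outer pair, double positive over GFP- Pdgfrα+ cells, did not overlap either and had a log2 fold change of −0.44 with a 95% interval of −0.77 to −0.11, but was not called (adjusted p = 0.133). The step from double positive to double negative cells was called (1.57, SE 0.15, adjusted p = 2.56e-06). Exons of *Thra* overlap those of *Nr1d1*, a circadian nuclear receptor gene on the other strand, and the libraries do not mark strand, so that reads of the pair cannot be told apart where they overlap. *Nr1d1* itself had values of 4.45 to 23.6.

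The retinoic acid receptor genes *Rara* (ENSMUSG00000037992, chr11:98789132-98836256, plus strand) and *Rarg* (ENSMUSG00000001288, chr15:102065369-102087948, minus strand) had the same order of populations. *Rara* had values of 112 and 105 in GFP- Pdgfrα+ cells, 80.8 and 80.1 in double positive cells, 46.7 and 54.4 in GFP+ Pdgfrα- cells and 3.30 and 7.66 in double negative cells. *Rarg* had 50.0 and 52.1, 40.2 and 33.8, 7.41 and 13.0, and 1.29 and 1.77 in the same order. For neither gene was the difference between the Pdgfrα+ populations called, although they did not overlap (−0.43, SE 0.27, adjusted p = 0.455 for *Rara*, and −0.46, SE 0.30, adjusted p = 0.472 for *Rarg*). Within GFP+ cells *Rarg* was higher in Pdgfrα+ cells (1.80, SE 0.30, adjusted p = 0.00109). The corresponding difference of *Rara* was not called (0.66, SE 0.27, adjusted p = 0.103), but was in a fit of only these populations, with voom or edgeR on the recovered reads, and without double negative replicate 1 (adjusted p = 0.00882) or replicate 2 (adjusted p = 0.0104), with a range of 0.00882 to 0.371 over all alternatives.

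Both retinoic acid receptor genes were lowest in double negative cells, with called steps from GFP+ Pdgfrα- cells of 3.07 for *Rara* (SE 0.27, adjusted p = 1.48e-06) and 2.11 for *Rarg* (SE 0.30, adjusted p = 9.08e-05). Compared with GFP- Pdgfrα+ cells, *Rara* was also called lower in GFP+ Pdgfrα- cells (−1.09, SE 0.27, adjusted p = 0.0104). That call was lost without the mean-variance trend (adjusted p = 0.0519) and without GFP- Pdgfrα+ replicate 1 (−1.04, adjusted p = 0.0808), GFP- Pdgfrα+ replicate 2 (−1.14, adjusted p = 0.0613) or GFP+ Pdgfrα- replicate 1 (−0.98, adjusted p = 0.102), with a range of 0.000241 to 0.102 over all alternatives.

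**Figure D2:**
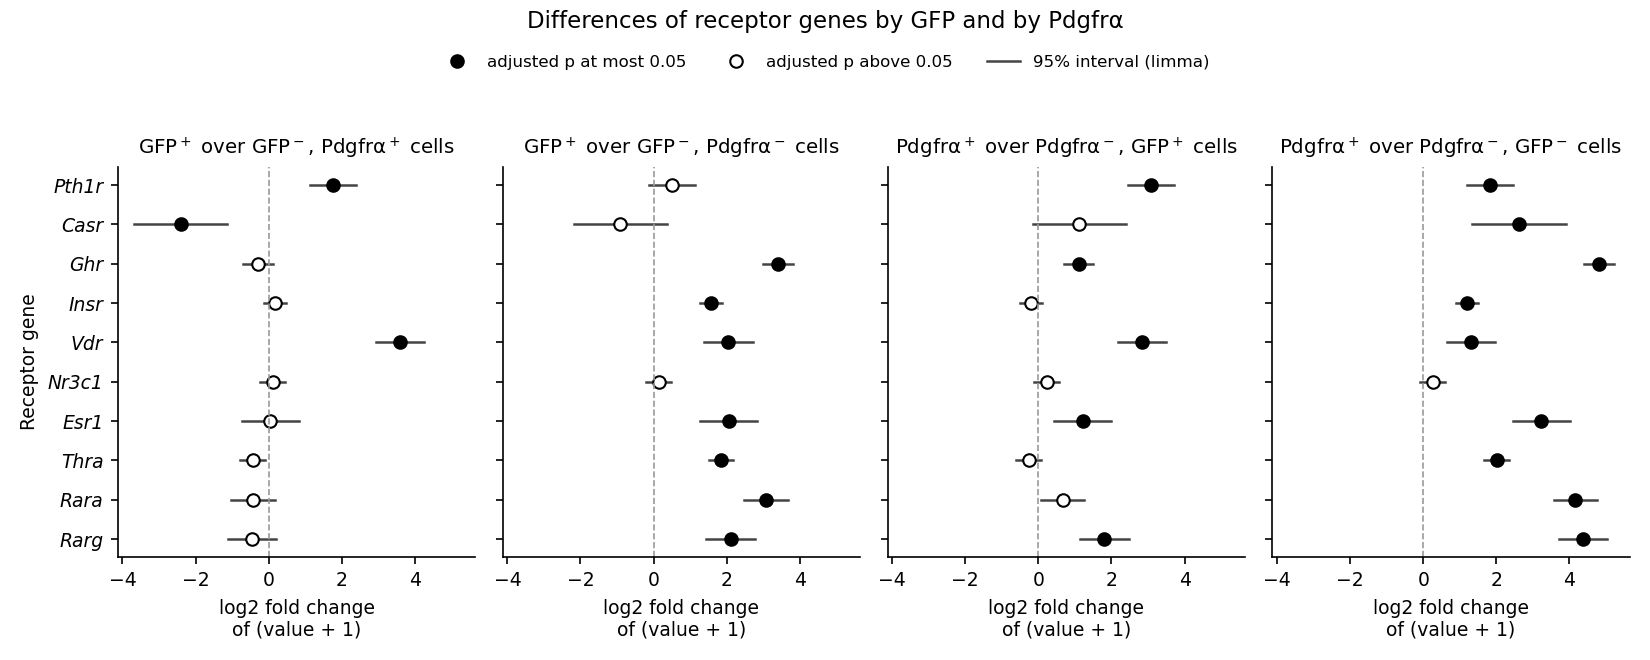
Log2 fold changes of (value + 1) for the 10 receptor genes in the 4 comparisons that differ by 1 sorting marker, with lines for the 95% interval of the limma fit on 2 libraries per population and filled points where the adjusted p was at most 0.05. Among Pdgfrα+ cells only *Vdr* (3.59), *Pth1r* (1.76) and *Casr* (−2.40) are filled, whereas among Pdgfrα- cells 7 genes are, all higher with GFP.

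The difference by GFP was itself compared between Pdgfrα+ and Pdgfrα- cells by the interaction term of the model. It was called for 8 of 10 members (44.3% of all genes), 2 of them with a larger difference in Pdgfrα+ cells (19.1%) and 6 with a larger one in Pdgfrα- cells (25.2%). With each library centred on its median, the median over all genes moved by 0.43 and the split of calls among all genes turned from 3032 higher and 3999 lower to 4427 and 2989, with 2 and 6 members still called. *Vdr* rose with GFP by 3.59 among Pdgfrα+ and by 2.05 among Pdgfrα- cells, an excess of 1.54 (SE 0.43, adjusted p = 0.0114). *Pth1r* had differences of 1.76 and 0.51, an excess of 1.24 (SE 0.41, adjusted p = 0.0265). For *Ghr* the difference of −0.29 among Pdgfrα+ cells stood against 3.41 among Pdgfrα- cells, and the interaction was −3.70 (SE 0.26, adjusted p = 5.02e-07). *Rara*, *Rarg*, *Thra*, *Esr1* and *Insr* also had negative interactions, of −1.39 to −3.50. Their differences among Pdgfrα+ cells were not called, being negative for *Rara*, *Rarg* and *Thra* and positive for *Esr1* (0.04) and *Insr* (0.17).

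The interaction calls of the genes that favoured Pdgfrα+ cells were the less stable ones. Both were lost with voom on the recovered reads (adjusted p = 0.0986 for *Pth1r* and 0.0914 for *Vdr*). That of *Pth1r* was lost without any single library other than double positive replicate 2 and double negative replicate 2 (lowest value 1.01, without double positive replicate 1), and that of *Vdr* without double positive replicate 1 (1.27), GFP- Pdgfrα+ replicate 2 (1.165) or GFP+ Pdgfrα- replicate 2 (1.41). Over all alternatives the adjusted p ranged from 0.00503 to 0.107 for *Pth1r* and from 0.00179 to 0.0914 for *Vdr*. That of *Casr*, not called in the reported fit (−1.50, adjusted p = 0.165), was called without double positive replicate 2 (−2.30, adjusted p = 0.0369, range 0.0369 to 0.981).

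Merged exons cover every annotated transcript of a gene (13678 bases for *Esr1* and 2727 for *Pth1r*), which can exceed the length of the transcripts present. Levels of different genes are given per kilobase of this length, so the order of genes is approximate. On that scale *Thra* (28.1 ± 3.05 per kilobase, SD, n = 2, some of which may be reads of *Nr1d1*) and *Vdr* (25.8 ± 6.99) had the highest means in double positive cells, in an order that differed between the libraries, followed by *Pth1r* (20.4 ± 4.68), *Insr* (20.1 ± 0.28) and *Ghr* (19.8 ± 1.48). In GFP- Pdgfrα+ cells *Thra* (38.1 ± 1.48), *Ghr* (24.2 ± 0.10) and *Rara* (23.7 ± 1.095) led, while *Vdr* had 2.01 ± 0.79. In GFP+ Pdgfrα- cells *Thra* (34.0 ± 4.80) and *Insr* (23.0 ± 0.59) led. *Nr3c1* was the highest member per kilobase in double negative cells, at 12.5 ± 2.28, ahead of *Thra* (9.32 ± 0.73) and *Insr* (7.74 ± 0.58), and all others were at most 1.34 there. *Esr1* and *Casr* were the lowest members per kilobase in double positive cells, at 1.43 ± 0.13 and 0.515 ± 0.52.

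Genes with the most similar pattern over the 8 libraries were sought by Pearson correlation of log2(value + 1) among 9003 genes with a symbol and a mean of at least 10. The 8 libraries fall into 4 populations, so these correlations describe mainly population differences and carry no test. The closest genes to *Vdr* were *Spp1* (r = 0.999), *Bglap* (0.996) and *Ibsp* (0.995), which encode the bone matrix proteins osteopontin, osteocalcin and bone sialoprotein, and which are 3 of the 8 osteoblast markers listed above. *Spp1* had values of 6048 and 3915 in double positive cells against 287 and 174 in GFP- Pdgfrα+, 494 and 393 in GFP+ Pdgfrα- and 85.4 and 77.5 in double negative cells, the same order of populations as *Vdr*. The closest to *Pth1r* were *Fam46a* (0.995), *Slc8a3* (0.987), a sodium-calcium exchanger gene, and *Bmp3* (0.984), of which *Bmp3* had 148 and 94.7 in double positive cells and 2.00 to 30.1 in the other libraries. The osteoblast marker sum was highest in the same libraries, and its part in the values of *Vdr* and *Pth1r* was not tested.

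The other members had different neighbours. The closest genes to *Ghr* were *Tril*, *Igf2bp2* and *Dpt* (0.998 to 0.999), those to *Rara* were *Samd4*, *Fgd1* and the fibrillin gene *Fbn1* (0.999 each), those to *Rarg* were *Klf14*, *Smad3* and *Atf5* (0.996 to 0.997), and those to *Esr1* were *Evc*, *Fmn1* and *9030425E11Rik* (0.995 to 0.998). *Thra* was closest to *Aoc3*, *Mib2* and *Plec* (0.995 to 0.998) and the sparsely read *Casr* to *Traf7*, *Mll5* and *Heatr7a* (0.951 to 0.982), while *Insr* was close to *Ssfa2* and *Brwd1* (0.992 to 0.995). Among the members themselves, *Ghr*, *Esr1*, *Rara* and *Rarg* had correlations of 0.934 to 0.986 with each other, *Pth1r* and *Vdr* had 0.873, and *Casr* had at most 0.554 with any other member. *Vdr*, *Ghr* and *Rarg* lie on chromosome 15, and *Thra* and *Rara* lie 158811 bases apart on chromosome 11.

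The related receptors that are not among the 10 members were read from a list of 9 nuclear hormone receptors, of which 7 were in the table. None was called between the Pdgfrα+ populations, where 5.35% of all genes were, and 5 of 7 were higher in GFP+ Pdgfrα- than in double negative cells, where 53.7% of all genes were called and 30.1% were higher. *Rxra*, a common partner of the receptors above, had values of 90.2 and 95.6 in double positive cells, 96.4 and 115 in GFP- Pdgfrα+, 75.4 and 83.0 in GFP+ Pdgfrα- and 22.8 and 20.4 in double negative cells. *Thrb*, the other thyroid hormone receptor gene, was called higher in GFP- Pdgfrα+ (9.96 and 16.2) than in double negative cells (0.431 and 0.354). *Rxrg* had values of 9.11 and 8.88 in GFP+ Pdgfrα- cells and at most 1.52 in the other libraries. *Rxrb* was not lowest in double negative cells, where it had 26.0 and 21.1, against 12.6 and 6.76 in double positive cells. *Nr3c2*, the mineralocorticoid receptor gene, had 10.3 and 9.90 in GFP+ Pdgfrα- cells and 0.144 to 6.76 elsewhere.

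A second list held 13 other surface receptors and their partners, 9 of them in the table. Within GFP+ cells 3 were higher and 3 lower in Pdgfrα+ cells (24.2% of all genes called, 13.1% higher), with a median log2 fold change of 0.54 against −0.02 for all genes. *Calcr*, the calcitonin receptor gene, had values of 85.8 and 78.3 in GFP+ Pdgfrα- cells and at most 2.35 in any other library, and was called lower in double positive cells (−4.67, SE 0.44, adjusted p = 1.36e-05). *Pax7*, the leading skeletal muscle marker, was likewise highest in these libraries (296 and 336), and the part of muscle cells in the *Calcr* values was not tested. *Tshr*, the thyrotropin receptor gene, was highest in GFP- Pdgfrα+ cells (21.1 and 14.7). It was the only listed surface receptor called between the Pdgfrα+ populations (−1.87, SE 0.38, adjusted p = 0.0141), where 5.35% of all genes were called and 2.13% called lower. *Igf1r* had 171 and 193 in GFP+ Pdgfrα- cells, 118 to 134 in Pdgfrα+ cells and 67.9 and 67.3 in double negative cells. *Ramp2*, a partner of the calcitonin-like receptor, was higher in Pdgfrα+ cells (25.4 to 33.4) than in GFP+ Pdgfrα- (10.3 and 6.05) and double negative cells (3.02 and 2.24). *Calcrl* itself ranged from 25.4 to 58.8 and was not called in any comparison by 1 sorting marker.

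Of the parathyroid hormone pathway, 14 of 15 listed genes were in the table. Between the Pdgfrα+ populations, where 5.35% of all genes were called and 3.22% called higher, *Tnfsf11* was the only listed gene called. It was higher with GFP, beside a median of 0.01 for the list. It encodes RANKL, the osteoclast-forming cytokine that parathyroid hormone induces, and was added to the named genes after its values were seen. *Tnfsf11* had 8.70 and 4.17 in double positive cells and 0.378 and 1.34 in GFP- Pdgfrα+ cells (1.98, SE 0.45, adjusted p = 0.0250). The means were 6.43 and 0.857, and the latter lay at the floor of detection, so the size of this difference is not fixed. Against double negative cells, 9 of the 14 genes were higher and 1 lower in GFP+ Pdgfrα- cells (53.7% of all genes called, 30.1% higher), with a median of 1.168 against 0.15 for all genes. *Gnas*, which encodes the stimulatory G protein alpha subunit, had values of 2204 and 2166 in double positive cells, 1747 to 2762 in the GFP- Pdgfrα+ and GFP+ Pdgfrα- libraries, and 357 and 448 in double negative cells. *Gnaq*, another G protein gene, and the immediate early nuclear receptor genes *Nr4a1* and *Nr4a2* rose over double negative cells by 3.44, 3.05 and 2.77 in GFP+ Pdgfrα- cells. *Arrb1*, which encodes a beta-arrestin that turns off such receptors, went the other way, with 357 and 361 in double negative cells and 36.0 to 60.6 elsewhere, and the part of erythroid cells in this was not tested. *Prkar1a*, a regulatory subunit of protein kinase A, was highest in GFP+ Pdgfrα- cells (266 and 245). Of these genes only *Tnfsf11* was called higher in the double positive cells than in both populations that differ from them by 1 marker, as *Pth1r* was.

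Few genes of vitamin D metabolism and calcium transport were in the table (3 of 8), and none was called between the Pdgfrα+ populations, where 5.35% of all genes were. *Pdia3*, which encodes a disulfide isomerase also described as a membrane binding protein of vitamin D, had values of 437 and 397 in double positive cells and 238 and 219 in GFP+ Pdgfrα- cells (0.86, SE 0.12, adjusted p = 0.000224). The hydroxylase genes *Cyp27b1* and *Cyp2r1*, whose enzymes activate vitamin D, were low throughout, at 0.590 to 3.12 and 0.431 to 4.28. The genes *Cyp24a1*, *Gc*, *Trpv6*, *S100g* and *Calb1* were not analysed here.

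In the growth hormone pathway 8 of 9 listed genes were in the table. *Igf1*, its main target, had 1826 and 1782 in GFP- Pdgfrα+ cells, 1277 and 1524 in double positive cells, 199 and 134 in GFP+ Pdgfrα- cells and 10.8 and 17.3 in double negative cells, which is the order of *Ghr*. *Socs2*, a feedback inhibitor, had 68.2 and 74.7, 44.3 and 51.9, 42.9 and 44.6, and 1.58 and 4.13 in the same order. The kinase and transcription factor genes differed from this, since *Jak2*, *Stat5a* and *Stat5b* were called higher in double negative cells than in either population that differs from it by 1 marker, with log2 fold changes of −0.91 to −2.20. *Jak2* was also higher in double positive than in GFP- Pdgfrα+ cells (102 and 80.1 against 55.3 and 48.0, 0.80, SE 0.18, adjusted p = 0.0228), as was *Socs3* (86.3 and 80.6 against 36.2 and 26.0, 1.41, SE 0.29, adjusted p = 0.0146). The erythroid marker sum was also highest in double negative cells (10613 and 16518), and its part in *Jak2* and *Stat5a* was not tested.

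For the insulin pathway, all 13 listed genes were in the table, none was called between the Pdgfrα+ populations (5.35% of all genes called), and 9 were higher and 2 lower in GFP- Pdgfrα+ than in double negative cells (59.7% of all genes called, 32.9% higher), with a median of 1.03 against 0.17 for all genes. *Irs1*, the main docking protein of the receptor, had 385 to 485 in the libraries of the 3 upper populations and 12.2 and 20.9 in double negative cells. *Grb10*, an inhibitory adaptor, had 1135 to 1469 against 156 and 182, and *Foxo1*, a transcription factor inhibited by insulin, 75.0 to 111 against 9.91 and 8.14. *Enpp1*, which encodes a pyrophosphate-producing enzyme that binds the receptor, followed Pdgfrα, with 169 to 229.7 in Pdgfrα+ libraries and 17.6 to 38.0 in Pdgfrα- libraries. *Pik3r1* was lowest in GFP+ Pdgfrα- cells (106 and 101) and *Pdpk1* highest in double negative cells (259.8 and 216).

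Of the retinoic acid pathway, 13 of 15 listed genes were in the table, and most were higher in Pdgfrα+ cells. Within GFP+ cells 9 were higher and 1 lower in Pdgfrα+ cells (24.2% of all genes called, 13.1% higher), with a median log2 fold change of 1.88 against −0.02 for all genes, and within GFP- cells 10 were higher and 0 lower (59.7% called, 32.9% higher), with a median of 2.80 against 0.17. Genes of the retinaldehyde dehydrogenases that make retinoic acid were among them. *Aldh1a2* had 23.7 to 30.4 in Pdgfrα+ libraries and 0.431 to 2.70 in Pdgfrα- libraries, and *Aldh1a3* had 30.2 to 48.9 and 0.354 to 4.01. *Aldh1a1* was low in GFP+ Pdgfrα- cells (3.28 and 4.24) and had 24.2 to 51.9 in the rest. *Cyp26b1*, whose enzyme degrades retinoic acid, was higher in GFP- Pdgfrα+ cells (44.2 and 45.0) than in double positive cells (11.7 and 11.4, −1.86, SE 0.27, adjusted p = 0.00211). *Stra6*, known as the receptor for retinol uptake, was named here after its values were seen. It was the one listed gene called higher in double positive than in GFP- Pdgfrα+ cells (means of 19.9 and 4.38). Besides *Stra6* and *Cyp26b1*, no listed gene was called between these populations, where 5.35% of all genes were called, 3.22% higher and 2.13% lower. *Rarres2*, named for its induction by retinoids, had 17.6 to 31.9 in the upper populations and 0.718 and 0.118 in double negative cells.

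In the thyroid hormone list 5 of 8 genes were in the table, with 3 higher and 1 lower in GFP- Pdgfrα+ than in double negative cells (59.7% of all genes called, 32.9% higher) and a median of 1.33 against 0.17 for all genes. *Slc16a10*, a transporter gene, had 276 and 293 in double negative cells and 8.76 to 15.9 elsewhere, so that its difference ran with the erythroid marker sum, whose part was not tested. *Dio2*, which encodes the activating deiodinase, had 10.4 and 12.8 in double positive cells and 13.2 and 8.36 in GFP+ Pdgfrα- cells, against 0.431 and 1.53 in the double negative and 2.40 and 5.79 in GFP- Pdgfrα+ cells, where the difference by GFP was not called (1.38, SE 0.46, adjusted p = 0.116). The target *Hr* and *Crym*, which encodes a cytosolic binding protein, were low, at 0.431 to 6.68 and 0.144 to 3.04.

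Of the estrogen list only *Greb1*, a target of the receptor, was in the table, with 1.09 to 2.73 in the upper populations and 0 reads in both double negative libraries. All 16 genes of the glucocorticoid list were in the table, and none was called between the Pdgfrα+ populations (5.35% of all genes called). Against double negative cells they divided, with 8 higher and 6 lower in GFP- Pdgfrα+ cells (59.7% of all genes called, 32.9% higher) and a median of 0.41 against 0.17 for all genes. Chaperone genes of the receptor did not all change alike. Higher in double negative cells were *Hsp90aa1* with 1738 and 1396 against 197 to 682 elsewhere, *Hsp90ab1* with 2725 and 2952 against 1221 to 2078 and *Fkbp4* with 174 and 176 against 61.9 to 85.2. *Fkbp5*, named here after its values were seen, was called lower there (19.96 and 21.1) than in GFP- Pdgfrα+ cells (32.4 and 36.4). It was lowest in GFP+ Pdgfrα- cells (15.7 and 13.2), whose difference from double negative cells was not called (−0.48, SE 0.22, adjusted p = 0.0906). *H6pd*, which supplies the glucocorticoid-activating dehydrogenase with cofactor, had 15.7 and 10.7 in double negative cells against 88.99 to 126. The target *Zbtb16* was lower there (3.02 and 1.53), the metallothionein gene *Mt2* higher (102 and 219 against 5.66 to 23.8), and *Dusp1* was highest in GFP+ Pdgfrα- cells (327 and 417). The erythroid marker sum was highest in the same double negative libraries (10613 and 16518), and its part in the chaperone genes and *Mt2* was not tested.

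The 10 listed coregulators of nuclear receptors were all in the table, and none was called between the Pdgfrα+ populations (5.35% of all genes called, median −0.13 against 0.00 for all genes). *Ncoa1*, a coactivator, had 316 and 351 in GFP+ Pdgfrα- cells, 91.6 to 126 in Pdgfrα+ libraries and 22.8 and 16.4 in double negative cells. The corepressor gene *Ncor1* ranged only from 355 to 446, and *Crebbp* from 260.2 to 400.5. *Ncoa3* was lowest in double negative cells (12.5 and 15.7), and *Ep300* and *Nrip1* were highest there (421 and 403, and 161 and 151).

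Upstream sequences are shown for *Vdr* and *Pth1r*, the members called higher in double positive cells than in every other population. RefSeq promoters on the build GRCm38.p6, which differs from that of the coordinates above, were used for 7 members and 15 starts. *Nr3c1*, *Thra* and *Insr* were not among the 7. The 250 bases before each start were searched on both strands. The motifs, chosen after the values were seen, were AGGTCA, a half-site of nuclear receptors, TGTGGT, the core of Runx sites, and GGGCGG, the GC box. They were present in 14.0%, 14.0% and 32.7% of the 32851 windows of the RefSeq promoter table. The first listed start of each gene is printed in the direction of transcription, with matches of GGGCGG in capitals.
*Vdr*, chr15:97908297-97908546, minus strand: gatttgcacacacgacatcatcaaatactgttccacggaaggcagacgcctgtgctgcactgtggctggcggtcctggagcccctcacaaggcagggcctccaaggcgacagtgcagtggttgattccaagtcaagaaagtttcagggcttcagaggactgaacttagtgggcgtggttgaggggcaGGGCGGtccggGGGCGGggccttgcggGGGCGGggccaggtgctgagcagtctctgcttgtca
*Pth1r*, chr9:110747146-110747395, minus strand: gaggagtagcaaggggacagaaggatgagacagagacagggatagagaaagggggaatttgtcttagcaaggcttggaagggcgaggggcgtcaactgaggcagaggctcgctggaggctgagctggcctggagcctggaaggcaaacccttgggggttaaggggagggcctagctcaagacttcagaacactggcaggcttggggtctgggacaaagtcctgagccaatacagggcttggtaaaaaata

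The *Vdr* window held 3 GC boxes, which begin 63, 52 and 36 bases before the start, and neither of the other motifs. The *Pth1r* window at its first start held none of the 3 motifs, and the windows of its other starts held 1 and 4 GC boxes. Across the 15 windows searched, AGGTCA was found once, 225 bases before the first start of *Rarg*, and TGTGGT once each in a window of *Rara* and of *Rarg*. A match or its absence describes these letters in these windows only.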

How the data were processed

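The deposited file holds 1 normalized signal per gene and library, which the authors made by trimming adaptors (cutadapt), quantifying reads with RSEM 1.17 on the NCBIM37 transcriptome of Ensembl 65, filtering low genes and normalizing with limma and its voom function. Picard is also named in their notes. Division by the step of 1 read gave whole reads for 100% of the values at a tolerance of 0.1, and these reads were used only for depth, floors and alternative tests. Of 15880 identifiers, 15849 had a symbol in the annotation of that build.

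The test was limma 3.58.1 in R 4.3.3 on log2(value + 1), with a mean-variance trend, 4 residual degrees of freedom, and adjustment over every gene. Each comparison has 2 libraries per side, and all 6 pairwise comparisons share libraries. The chi-square per degree of freedom between the libraries of a population, 4.12 to 9.12, shows more spread than counting alone gives, and intervals of read ratios cover counting error only. Tables and figures used Python 3.11.15 with numpy 2.4.6.

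The design text says that each independent set came from pooled littermates, so equal replicate numbers were taken to share a pool. Deviations of equally numbered libraries correlated at 0.0043 to 0.0812 between populations. A block for the number left every count of called members unchanged.

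Alternatives were that block, a pseudocount of 0.1, a low-value filter, fits of only the compared populations, no trend, median centring, voom, and edgeR 4.0.16, besides leaving out each library or replicate. On recovered reads edgeR called 893, 3586, 8415 and 9281 genes in the comparisons by 1 marker.

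The members and the 22 gene lists were chosen with earlier results of these data known. From each pathway list the genes with the highest means and the largest called changes are named, and genes outside that rule are marked in the text. A few genes named by the rule are not reported here.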

Additional observations from a re-analysis of the deposited data

Results flagged for a closer look

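For 8 of the 10 receptors the log2 difference between GFP+ and GFP- cells differs between Pdgfrα+ and Pdgfrα- cells, as tested by the interaction in limma. The interaction was called for 44.3% of all genes. The difference in Pdgfrα+ cells minus that in Pdgfrα- cells was 1.5434 for *Vdr* and 1.2448 for *Pth1r*. It was −3.6986 for *Ghr*, −3.5015 for *Rara*, −2.5663 for *Rarg*, −2.2779 for *Thra*, −2.0174 for *Esr1* and −1.3943 for *Insr*. The calls of *Vdr* and *Pth1r* were both lost with voom, which called 6 members, and leaving out 1 library gave 6 to 9 called members.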

How the results depend on the processing

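Between the Pdgfrα+ populations, leaving out 1 library gave 1 to 3 called members, with 1 when replicate 1 of either population was left out. Differences that changed sign were small or sparsely read, and the cause was not tested. For *Casr* in double positive over double negative cells, median centring gave −0.267, and leaving out libraries gave −0.593 to 1.02. For *Nr3c1*, median centring gave −0.318 for GFP+ Pdgfrα-, −0.197 for GFP- Pdgfrα+ and −0.12 for double positive over double negative cells. For its interaction, centring gave 0.395, voom 0.034 and edgeR 0.048, and leaving out libraries gave −0.373 to 0.312. Leaving out libraries also gave *Nr3c1* −0.005 to 0.217 between the Pdgfrα+ and −0.095 to 0.368 between the Pdgfrα- populations, and *Esr1* −0.053 to 0.129 between the Pdgfrα+ populations. Calls among all genes between the Pdgfrα+ populations fell from 849 to between 246 and 517 when a library of these populations was left out, and to 532 without the trend.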
